A study of Mus musculus with 4 samples.

Results

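The expression of 10 genes of the NF-kB system was examined in Treg cells that had been cultured for 3 h with PBS or with TSLP, an epithelial cell-derived cytokine. The genes were taken by name from the 24418 genes listed, and comprised the 5 NF-kB subunits (Nfkb1, Nfkb2, Rel, Rela and Relb) and 5 genes that restrain NF-kB (Nfkbia, Nfkbib, Nfkbie, Nfkbiz and Tnfaip3), called inhibitors here. Treg cells were sorted on CD4 and YFP from spleens and lymph nodes of sex-matched Foxp3YFP-Cre mice aged 8 to 12 weeks, in which the Foxp3 locus drives YFP and Cre recombinase, so that cells of both groups carried this allele. PBS-treated cells were the control, and TSLP-treated cells received 100 ng/mL, with 2 samples in each group, called PBS 1, PBS 2, TSLP 1 and TSLP 2 by their replicate numbers. The labels do not say whether the 2 samples of a group came from separate mice or cultures, so that the spread between samples behind the p-values may be technical. Each library held 10271571 to 11761234 reads on genes. RNA sequencing of these samples asked which signalling pathways other than JAK-STAT respond to TSLP in Treg cells. The sort was reflected in the transcripts, since Foxp3, which defines Treg cells, had 2514, 5065, 4784 and 4824 reads in PBS 1, PBS 2, TSLP 1 and TSLP 2. Ctla4, the most abundant of 8 Treg cell markers, had 14544, 12245, 14091 and 12870 reads.

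NF-kB transcription factors are dimers of 5 related subunits that share a DNA-binding domain. RelA, RelB and c-Rel (encoded by Rel) carry activation domains, whereas Nfkb1 and Nfkb2 encode the long precursors p105 and p100, which are processed to the DNA-binding subunits p50 and p52. In resting cells, IkB proteins hold the dimers inactive, and signals from antigen receptors, TNF-family receptors and Toll-like receptors release the dimers through the IkB kinase complex. Active NF-kB induces several of its own inhibitors, including IkB-alpha and A20, which gives the system its feedback. In the T cell lineage, c-Rel is known for its part in the development of Treg cells and in the induction of Foxp3. TSLP itself signals through a receptor of TSLPR and the IL-7 receptor alpha chain, with JAK kinases and STAT5 downstream.

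The stretches upstream of Nfkbia and Rel are shown because these 2 members differed the most between the PBS libraries on the log2 scale. They come from the RefSeq promoter table of build GRCm38.p6 and cover the 250 bases before the start, 5′ to 3′ on the gene's strand, which is the reverse strand for both genes. The first lies at chr12:55492648-55492897 and the second at chr11:23770970-23771219. Capitals mark matches of the general NF-kB motif on either strand, that is, GGG and CC parted by any 5 bases, or GG and CCC parted by any 5 bases when the match is on the other strand, with overlapping matches joined.
Nfkbia: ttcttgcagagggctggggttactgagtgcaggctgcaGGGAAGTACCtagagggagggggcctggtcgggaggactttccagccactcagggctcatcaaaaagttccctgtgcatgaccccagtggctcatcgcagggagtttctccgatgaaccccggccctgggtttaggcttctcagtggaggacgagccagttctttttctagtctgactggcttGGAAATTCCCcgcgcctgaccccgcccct
Rel: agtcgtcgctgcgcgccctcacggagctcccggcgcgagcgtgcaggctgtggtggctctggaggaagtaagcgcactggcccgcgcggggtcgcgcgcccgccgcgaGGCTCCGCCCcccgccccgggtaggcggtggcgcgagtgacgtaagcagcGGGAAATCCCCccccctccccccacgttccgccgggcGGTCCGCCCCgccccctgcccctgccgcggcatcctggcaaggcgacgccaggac
The Nfkbia stretch held 2 matches, GGGAAGTACC beginning 212 bases and GGAAATTCCC beginning 29 bases before the start. The Rel stretch held 4 matches, including GGGAAATCCC, which matches on both strands and begins 92 bases before the start. Of the 10 members, 7 had entries in this table with 10 promoters among them, and 9 of the 10 promoters held at least 1 match, the exception being that of Nfkbib. Counted by gene, 6 of the 7 held a match, since Nfkb2 and Tnfaip3 have more than 1 promoter in the table. Across all 32851 promoters of the table, 45.8% held at least 1 match, 23.2% at least 2 and 10.7% at least 3. The promoter of Nfkb2 nearest to the 5′ end of the gene held 7 matches, among them GGGAATTCCC beginning 39 bases before the start, and the outer promoter of Tnfaip3 held 4. A match is a description of these letters and not of a bound site. Promoters of Nfkb1, Relb and Nfkbiz were not analysed here.

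All 10 members passed the filter on low values, which asked for a normalized count of 10 in 2 or more libraries. The normalized count is the deposited value, that is, the reads of a gene scaled by the size factor of its library. Their levels were set in order as reads per kilobase of exon at a library size of 1000000 reads on genes (RPKM), with the mean and SD over the 4 libraries. Tnfaip3, which encodes the ubiquitin-editing enzyme A20, had the highest level with 477 ± 78.4 RPKM (n = 4). Nfkbia, which encodes IkB-alpha, followed with 464 ± 161 RPKM, and the ranges of these 2 genes overlapped (401 to 575 and 352 to 700.0 RPKM). By the normalized count, which is not corrected for length, Tnfaip3 ranked 6 among the 11392 genes tested. Next came Nfkb1 with 120.2 ± 12.7 RPKM, Nfkb2 with 119.8 ± 12.5 RPKM and Rela with 107 ± 6.94 RPKM, whose ranges overlapped one another but lay below those of Tnfaip3 and Nfkbia. Nfkbiz had 86.2 ± 7.44 RPKM, with a range below those of all 3. Rel lay lower again, and its range did not reach that of Nfkbiz. At the lower end were Rel with 59.0 ± 16.9 RPKM, Nfkbib with 52.1 ± 11.02 RPKM, Nfkbie with 44.3 ± 5.52 RPKM and Relb with 42.7 ± 7.84 RPKM, and the ranges of neighbours among these 4 overlapped. The subunit with the widest relative spread was Rel (34.9 to 74.0 RPKM), and that with the narrowest was Rela (98.3 to 115 RPKM). The order depended on the length assigned to each gene. With the length of the principal transcript in place of all exons, an alternative chosen after seeing the data, Nfkb1 stood at 352 RPKM and Relb moved from order 10 to 7 with 75.1 RPKM, while Tnfaip3, Nfkbia, Nfkb1, Nfkb2 and Rela kept the first 5 places.

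To ask whether TSLP altered NF-kB gene expression, limma was fitted to log2(normalized count + 1) of 11392 genes, with Benjamini-Hochberg adjustment over all of them. No member passed the test, and the adjusted p was 0.9999 for each of the 10 members. Across all genes tested, 0% passed at an adjusted p under 0.05, whether with limma, edgeR or DESeq2. At an unadjusted p under 0.05, limma called 192 genes (1.69%), while edgeR and DESeq2 called 234 each, and no member was among those called by any of these tools. The log2 fold change of TSLP against PBS was above 0 in 4 members and below 0 in 6. In 9 of the 10 members the values of the groups overlapped. In the other, Relb, both TSLP libraries lay below both PBS libraries, as they did in 14.4% of all genes tested, and 14.5% of all genes had both TSLP libraries above. With 2 libraries against 2, an exact two-sided permutation test of a single gene cannot go below p = 0.333. As these are bulk samples, fewer cells of a type and less RNA per cell cannot be told apart.

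**Figure D1:**
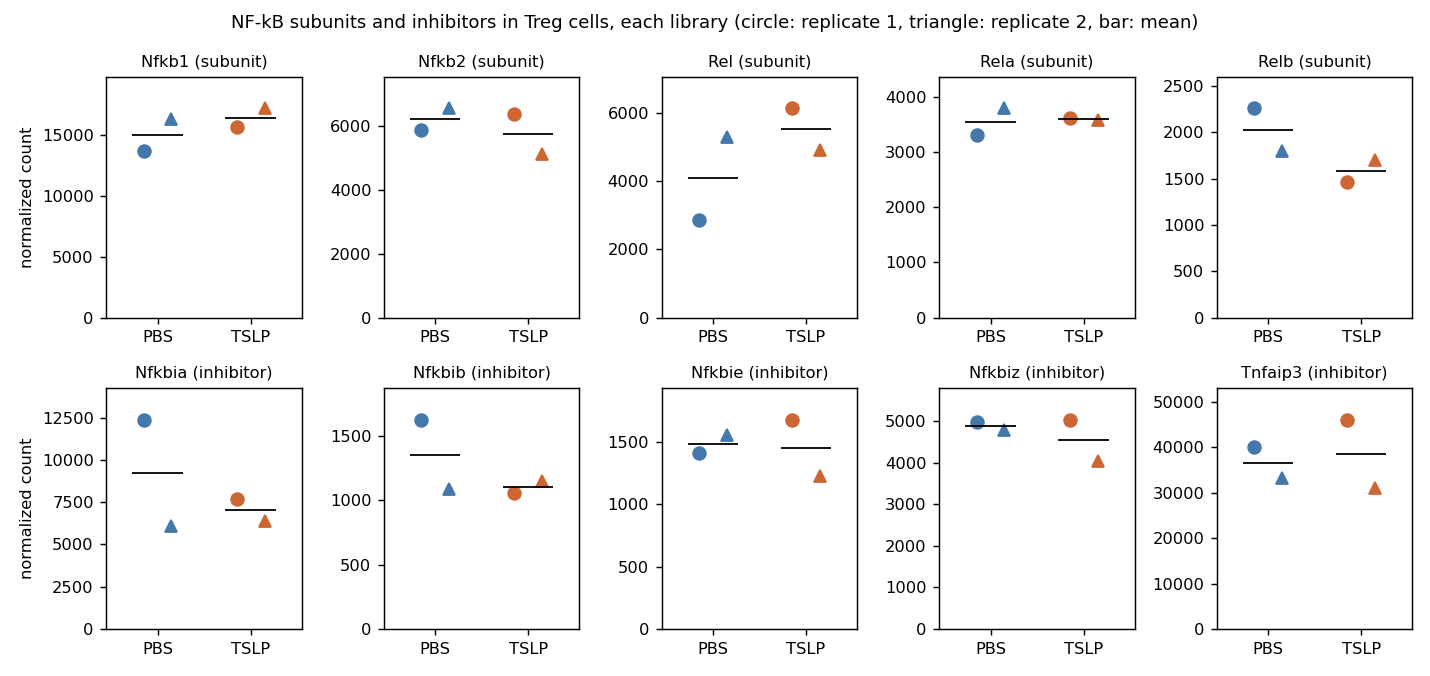
Normalized counts (vertical axis, linear from 0, a separate scale in each panel) of the 10 genes in the 2 PBS and 2 TSLP libraries, with circles for replicate 1, triangles for replicate 2 and a horizontal bar at the group mean. The PBS points of Nfkbia (12373 and 6085) and Rel (2863 and 5288) lie far apart, and Relb is the only panel in which both TSLP points lie below both PBS points.

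Among the subunits, Rel had the largest log2 fold change in size and Rela the smallest. Rel (chromosome 11, 23736847 to 23770970, reverse strand) had normalized counts of 2863 and 5288 in PBS and of 6124 and 4903 in TSLP. PBS 1 was low, whereas PBS 2 lay between the TSLP libraries, so that the groups overlapped. The means were 4075 ± 1714 and 5513 ± 863 (SD, n = 2), with a log2 fold change of 0.49 (SE 0.31, 95% interval −0.20 to 1.18). This value rested on PBS 1, since without that library it was 0.05, and without PBS 2 it was 0.94.

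Relb encodes the activating partner of p52 in the non-canonical pathway (chromosome 7, 19606217 to 19629438, reverse strand). Its normalized counts were 2257 and 1799 in PBS and 1464 and 1697 in TSLP. The lower PBS library lay only slightly above the higher TSLP library. With means of 2028 ± 324 and 1581 ± 165, the log2 fold change was −0.35 (SE 0.23, 95% interval −0.87 to 0.16). It ranged from −0.52 to −0.19 when each library was left out in turn.

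Rela, the main activating subunit of the canonical pathway (chromosome 19, 5637483 to 5648130, forward strand), had normalized counts of 3317 and 3794 in PBS and of 3622 and 3591 in TSLP. Both TSLP libraries lay between the PBS libraries. The log2 fold change was 0.02 (SE 0.21), and its 95% interval of −0.46 to 0.51 leaves room for a change of either sign. Nfkb1 (chromosome 3, 135584655 to 135691547, reverse strand) had 13746 and 16391 in PBS and 15677 and 17221 in TSLP. Its log2 fold change was 0.13 (SE 0.26, 95% interval −0.45 to 0.71), with TSLP 1 inside the PBS range. Nfkb2 (chromosome 19, 46304320 to 46312385, forward strand) had 5875 and 6544 in PBS and 6364 and 5115 in TSLP, and here TSLP 2 was the low library. Its log2 fold change was −0.12 (SE 0.23, 95% interval −0.64 to 0.40). Exons of Nfkb2 share 531 bases (11.6% of its exon length) with a non-coding RNA gene of the opposite strand that is not among the genes listed. They share 299 bases with Psd, also on the opposite strand, which had 808 to 1060 reads per library, and the strand setting of the counting is not given in the sources used here, so that reads of these overlaps cannot be told apart.

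Among the inhibitors, Nfkbia had the largest log2 fold change in size and also the largest log2 difference between replicates. Nfkbia (chromosome 12, 55489410 to 55492647, reverse strand) had normalized counts of 12373 and 6085 in PBS and of 7718 and 6389.5 in TSLP. PBS 1 was far above the others, and PBS 2 was the lowest of the 4 libraries. The means were 9229 ± 4447 and 7054 ± 939, with a log2 fold change of −0.31 (SE 0.33, 95% interval −1.06 to 0.45). Without PBS 1 the log2 fold change was 0.21, and without PBS 2 it was −0.82, so that its sign depended on 1 control library.

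Nfkbib, which encodes IkB-beta (chromosome 7, 28758251 to 28767512, reverse strand), resembled Nfkbia in that PBS 1 stood apart. Its normalized counts were 1626 and 1086 in PBS and 1059 and 1149 in TSLP. PBS 1 was the high library and the other 3 lay close together. The log2 fold change was −0.27 (SE 0.26, 95% interval −0.85 to 0.31), and without PBS 1 it was 0.02. Exons of Nfkbib share 42 bases with Sirt2 and 314 bases with Ccer2, both on the opposite strand. Sirt2 had 831 to 1082 reads per library.

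Tnfaip3 (chromosome 10, 19000910 to 19015657, reverse strand) had 39998 and 33293 normalized counts in PBS and 46049.8 and 31084 in TSLP. The TSLP libraries were the highest and the lowest of the 4 and enclosed both PBS libraries. With means of 36645 ± 4741 and 38567 ± 10582, the log2 fold change was 0.05 (SE 0.33, 95% interval −0.70 to 0.80). It was −0.23 without TSLP 1 and 0.34 without TSLP 2. Nfkbie, which encodes IkB-epsilon (chromosome 17, 45555703 to 45563169, forward strand), likewise had its highest and lowest values in TSLP, with 1414 and 1558 in PBS and 1678 and 1225 in TSLP. Its log2 fold change was −0.05 (SE 0.24, 95% interval −0.59 to 0.49). Nfkbiz encodes the nuclear protein IkB-zeta, which can activate as well as restrain NF-kB target genes (chromosome 16, 55811375 to 55838899, reverse strand). It had 4976 and 4780.4 in PBS and 5029.8 and 4042 in TSLP, with TSLP 2 as the low library. Its log2 fold change was −0.11 (SE 0.22, 95% interval −0.62 to 0.39).

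**Figure D2:**
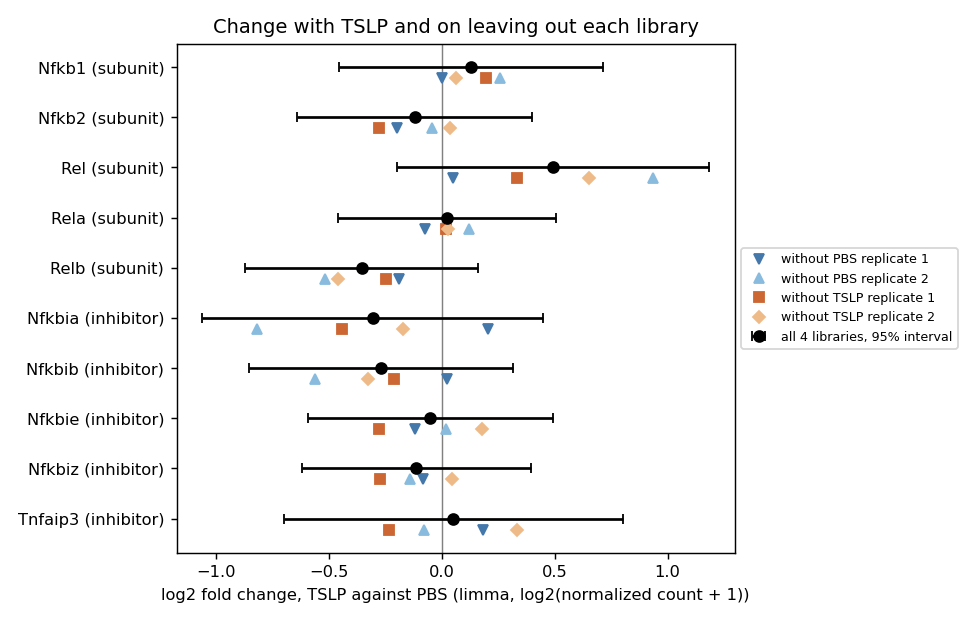
Log2 fold change of TSLP against PBS (horizontal axis, limma on log2(normalized count + 1)) for the 10 genes (vertical axis), with black points for all 4 libraries, bars for the 95% interval and coloured symbols for the value without each library in turn. Each interval covers 0, and the symbols of Nfkbia (−0.82 to 0.21) and Rel (0.05 to 0.94) are the most widely spread.

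Subunits and inhibitors were then set against each other. The median log2 fold change was 0.02 over the 5 subunits, of which 3 were above 0 and 2 below, and −0.11 over the 5 inhibitors, of which 1 was above 0 and 4 below. The median over all genes tested was 0.01, with 5838 above 0 and 5554 below. The mean log2 fold change of the inhibitors minus that of the subunits was −0.17. In single libraries, the mean log2 normalized count of the inhibitors minus that of the subunits was 0.34 and −0.25 in the PBS libraries 1 and 2, and −0.01 and −0.24 in the TSLP libraries 1 and 2. PBS 1 was the high value, both TSLP libraries lay inside the PBS range, and without PBS 1 the difference in log2 fold change between inhibitors and subunits was 0.12. The log2 ratio of the normalized counts of Nfkbia and Rel was 2.11 in PBS 1 and 0.20, 0.33 and 0.38 in PBS 2, TSLP 1 and TSLP 2. Both genes were chosen for this ratio because they differed the most between the PBS libraries on the log2 scale. The ratio thus describes PBS 1 and tests nothing.

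The makeup of each class was described by shares of its summed RPKM. Rel made up 8.59%, 13.6%, 16.2% and 13.7% of the subunit total in PBS 1, PBS 2, TSLP 1 and TSLP 2. Relb made up 13.0%, 8.92%, 7.44% and 9.09%. For both genes PBS 1 stood apart, Rel being low and Relb high, and for both the share in TSLP 2 was close to that in PBS 2. Rela took a steady share of 23.3% to 24.3%. Nfkbia made up 49.8% of the inhibitor total in PBS 1 and 36.3% to 39.7% in the other 3 libraries.

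On the scale of normalized counts, the replicates of PBS or of TSLP lay further apart than the group means in all 10 members. On the log2 scale this held in 9, and for Relb, the exception, both distances were close (0.33 between the PBS replicates and 0.35 between the groups). These counts take the larger of 2 replicate distances. The share of all genes tested is not given here, so that they do not set the members apart from other genes. The distance between PBS replicates exceeded counting error in 10 members and that between TSLP replicates in 8, by exact Clopper-Pearson intervals of the reads, which cover counting error only. Of all tested genes with a mean of at least 1000 in the group, 86.1% in PBS and 69.2% in TSLP did so too. In PBS, the log2 ratio of replicate 1 to replicate 2 was 1.02 for Nfkbia (95% interval 0.98 to 1.07, or 2.03-fold), and 5.06% of the 2708 genes with a mean of at least 1000 in PBS were at least this far apart. The same ratio was −0.885 for Rel (95% interval −0.95 to −0.82), and 8.68% of genes were at least as far apart. In TSLP, Tnfaip3 was the most distant member with a log2 ratio of 0.57 (95% interval 0.55 to 0.59), and 2.37% of 2740 genes were at least as far apart, followed by Nfkbie with 0.45 and 6.17%.

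The summed levels of the members and of the immediate early genes also differed between libraries. Summed over the group, levels per 1000000 reads on genes (CPM) were 2555, 3152, 3001 and 3030 for the subunits and 5499.9, 4362, 5554 and 4089 for the inhibitors in PBS 1, PBS 2, TSLP 1 and TSLP 2. The inhibitor sum was thus higher in PBS 1 and TSLP 1 than in PBS 2 and TSLP 2, and the subunit sum was low in PBS 1 only. Most of the inhibitor sum came from Tnfaip3, with 3643, 3103, 4156 and 2896 CPM, while Nfkbie in PBS and Nfkbib in TSLP were higher in replicate 2. Immediate early genes, a list of 17 transcription factors and other genes that are induced within minutes of cell activation or of cell handling, had sums of 13794, 9894, 12138 and 9184, the order of libraries being PBS 1, TSLP 1, PBS 2 and TSLP 2. Of these 17 genes, 4 had a log2 fold change above 0 and 13 below, with a median of −0.19 and none past the test. Nr4a1, a gene induced by antigen receptor signals, was the most abundant of them by mean normalized count, with 33290, 21014, 28427 and 18613 reads. Per kilobase of exon, Junb was above Nr4a1 in each library. Replicate 1 was above replicate 2 in 13 of the 17 genes in PBS and in 16 of the 17 in TSLP, against 46.7% and 56.7% of the 2716 genes tested with a mean of at least 1000. It was above in 4 of the 5 inhibitors in each group, and in 1 and 3 of the 5 subunits. The part of immediate early gene induction in the inhibitor values was not tested.

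**Figure D3:**
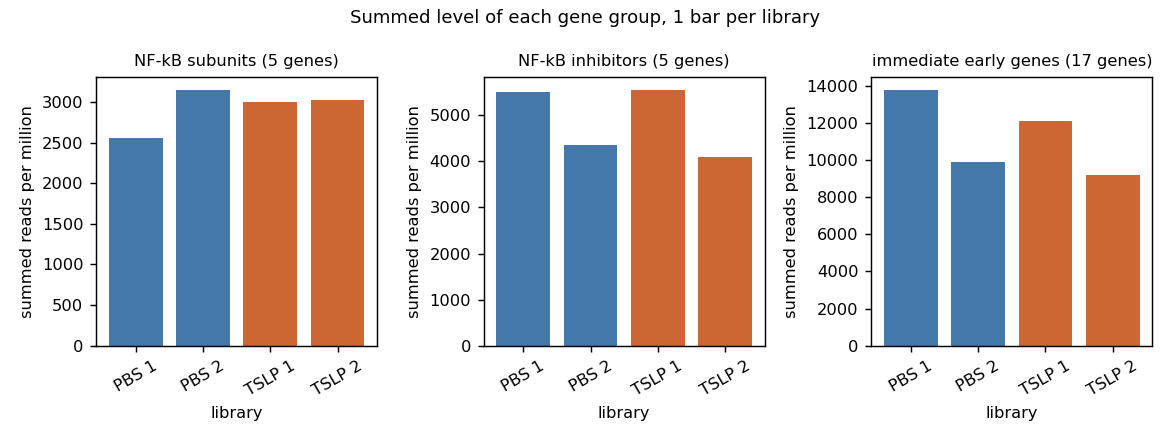
Summed CPM, reads per 1000000 reads on genes (vertical axes, linear from 0) of the NF-kB subunits, the NF-kB inhibitors and the immediate early genes in each of the 4 libraries, with 1 bar per library, blue for PBS and orange for TSLP. The subunits are lowest in PBS 1 (2555), and in the panels of inhibitors and immediate early genes the bars of PBS 1 and TSLP 1 are taller than those of PBS 2 and TSLP 2.

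The libraries also differed along gene length. Over 2635 genes, the deviation of a library from the mean of the other 3 correlated across genes with exon length, with a Spearman rho of −0.66 and 0.57 in the PBS libraries 1 and 2 and of 0.40 and 0.31 in the TSLP libraries 1 and 2, given as a description, since the points share their libraries. In PBS 1 short transcripts were therefore higher and long ones lower than in the other 3 libraries. Nfkbia has 1610 exon bases and Nfkbib 2169, whereas Rel has 7466 and Tnfaip3 7226. With the smooth trend over exon length removed, the log2 difference of PBS 1 and PBS 2 went from 1.02 to 0.53 for Nfkbia, from 0.58 to 0.22 for Nfkbib, from −0.885 to −0.66 for Rel, and from 0.26 to 0.48 for Tnfaip3. It became smaller in size in 6 of the 10 members and larger in 4. Nfkb1, the longest member with all exons counted (12061 bases), turned from −0.25 to 0.20, while Rela went from −0.19 to −0.39 and Nfkbie from −0.14 to −0.34. The trend removed was that over all exons, and the principal transcript of Nfkb1, with 4117 bases, is shorter than that of Rel. PBS 1 remained the highest library for Nfkbia and the lowest for Rel. In this fit the log2 fold change was −0.15 for Nfkbia, −0.13 for Nfkbib, −0.32 for Relb, 0.11 for Rela and 0.41 for Rel, with an adjusted p of 0.9996 for each member (limma, Benjamini-Hochberg). The origin of the length trend was not tested.

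**Figure D4:**
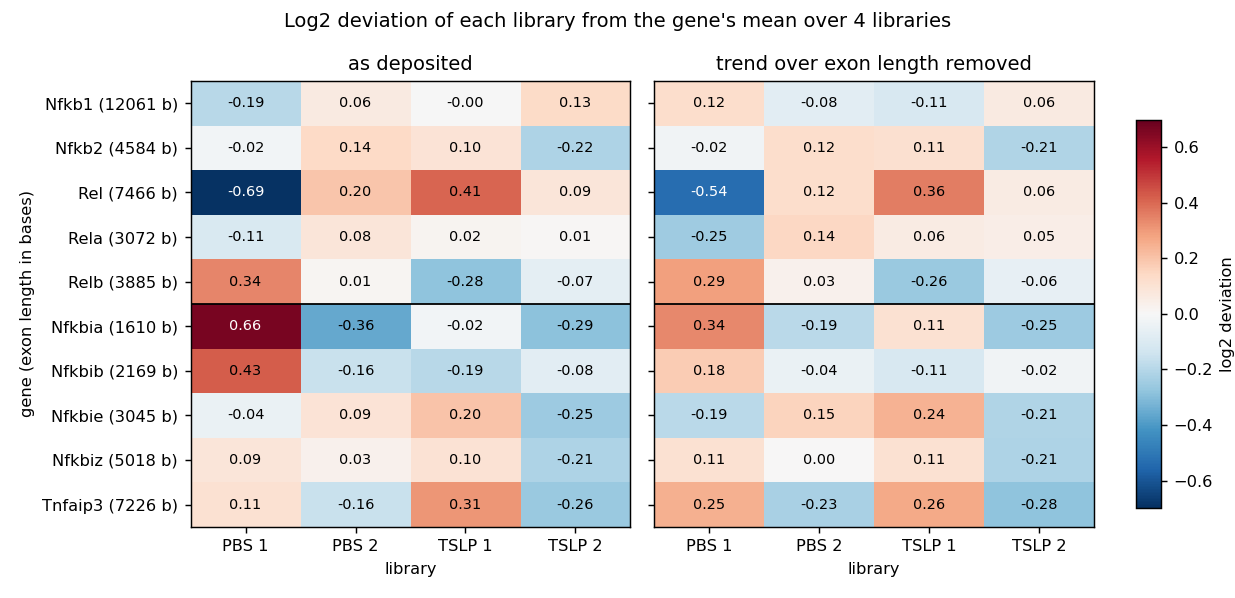
Log2 deviation of each library (columns) from the mean of the gene over the 4 libraries, for the 10 genes (rows, with exon length in bases, subunits above the black line), with red above and blue below the mean, for the deposited values (left) and with the trend over exon length removed (right). In PBS 1, Nfkbia goes from 0.66 to 0.34 and Rel from −0.69 to −0.54 between the panels, and Tnfaip3 stays above its mean in PBS 1 and TSLP 1.

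Markers of other cells were low in all libraries. The 7 myeloid cell markers, 4 of which passed the filter on low values, had a summed CPM of 61.6, 40.1, 41.2 and 42.4, the highest being PBS 1. Cst3 was the most abundant with 498, 302, 383 and 346 reads. Of the 4 markers tested, 1 had a log2 fold change above 0 and 3 below, with a median of −0.92 and none past the test. As in 14.4% of all genes tested, both TSLP libraries were under both PBS libraries in 2 of them. These were Cd68 with 174, 66, 59 and 16 reads (log2 fold change −1.75, SE 0.82) and Itgam with 23, 19, 4 and 7 reads (−1.78, SE 1.40). Lyz2 had 1, 43, 37 and 40 reads and was lowest in PBS 1. Adgre1, which defines macrophages, had 0 reads in each of the 4 libraries, which allows up to 0.255 to 0.292 CPM (3 reads). The 7 B cell markers, of which 3 passed the filter, summed to 4.502, 10.5, 5.87 and 10.3 CPM, with Cd79b the most abundant at 7, 61, 20 and 87 reads and Pax5 at 0 in all 4. Both CD8 T cell markers were tested and summed to 13.4, 7.83, 8.84 and 11.97 CPM, mostly from Cd8b1 with 76 to 120 reads. The 8 Treg cell markers summed to 3764, 4398, 4299 and 4598 CPM, and PBS 1 was lowest for this sum and for Foxp3, whereas Ctla4 and Tnfrsf18 were highest in PBS 1 (1284 and 532 CPM). Of these 8 genes, 7 had a log2 fold change above 0 and 1 below, with a median of 0.16 and none past the test. The part of the myeloid genes in the high Nfkbia of PBS 1 was not tested.

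Genes that surround the 10 members in the pathway were examined in 6 further lists with 91 genes, of which 81 passed the filter on low values. Of these 81 genes, 40 had a log2 fold change above 0 and 41 below, with a median of −0.003 and none at an adjusted p under 0.05. Cxcl10 was the only gene with an unadjusted p under 0.05 (1.23% of the 81). In 10 genes (12.3%) the lower TSLP value exceeded the higher PBS value and in 7 (8.64%) the reverse held, shares that did not exceed those of all genes tested.

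Upstream of NF-kB, the median log2 fold change was 0.05 over 14 of 16 receptors, with 7 above 0 and 7 below. Tnfrsf1b, which encodes TNF receptor 2, was the most abundant of these by mean normalized count. It had normalized counts of 10719 and 9301 in PBS and 11278 and 11025 in TSLP. Both TSLP libraries were above both PBS libraries (log2 fold change 0.16, SE 0.24). Per kilobase of exon, Tnfrsf4 was above Tnfrsf1b in each library. Among 8 of 12 ligands, 4 were above 0 and 4 below, with a median of −0.0001. Tnfsf8, the ligand of CD30, was the most abundant by mean normalized count, with 2321 and 3968 in PBS and 3539 and 4182 in TSLP. Per kilobase of exon, Ltb was above Tnfsf8 in each library. Among 16 adaptors and ubiquitin ligases of the TRAF, cIAP, RIP and LUBAC group, 7 were above 0 and 9 below, with a median of −0.01. The most abundant of them was Traf1, a TNF receptor adaptor, with 6529 and 6144 in PBS and 5874 and 5976 in TSLP (log2 fold change −0.10, SE 0.22). Of 11 genes of the IkB kinase complex and related kinases, 7 were above 0 and 4 below, with a median of 0.06. Tab2, an adaptor of the kinase TAK1, was the most abundant of these, with 2795 and 3099 in PBS and 3214 and 3321 in TSLP (log2 fold change 0.15, SE 0.21).

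Of 15 tested among 16 other regulators of the IkB and A20 families, 7 were above 0 and 8 below, with a median of −0.03. The most abundant was Nfkbid, which encodes the nuclear protein IkB-NS, with normalized counts of 9372 and 6003 in PBS and 7106 and 4449.9 in TSLP. As with the inhibitors in sum, PBS 1 and TSLP 1 were above their replicates, the groups overlapped, and the log2 fold change was −0.42 (SE 0.31).

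Downstream, 17 of 20 target genes of NF-kB were tested, of which 8 were above 0 and 9 below, with a median of −0.03. Ccr7, a chemokine receptor that guides T cells to lymph nodes, was the most abundant, with normalized counts of 22992 and 16455 in PBS and 18705 and 16006 in TSLP (log2 fold change −0.17, SE 0.29). Cxcl10, a chemokine gene induced by interferons and by NF-kB, had normalized counts of 246 and 207 in PBS and 126 and 86.7 in TSLP. Both TSLP libraries lay below both PBS libraries. The means were 227 ± 27.6 and 106 ± 27.9, and the log2 fold change was −1.10 (SE 0.43). It was the gene with an unadjusted p under 0.05, and with a Benjamini-Hochberg adjusted p = 0.9999 (limma) it did not pass the test over all genes.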

How the data were processed

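RNA from 4 samples of sorted Treg cells (PBS or TSLP, 2 each) was sequenced as single-end reads of 50 bases from a strand-marking library kit. The authors mapped reads to mm10 with Hisat2 and counted them with HTSeq. What they deposited is a signal, that is, reads per gene scaled by the size factor of that library. The gene annotation and strand setting are not given in the sources used here. Multiplied back, 100% of values were whole reads within 0.01. The labels and the study's methods name different RNA extraction reagents. In the deposited values, 27 gene names had turned into dates.

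Genes reaching a normalized count of 10 in 2 or more libraries (11392 of 24418, with all 10 members) were tested by limma 3.58.1 (eBayes with trend, R 4.3.3) on log2(normalized count + 1), with Benjamini-Hochberg adjustment over all genes tested. A fold change on this scale understates the change of low genes. edgeR 4.0.16 (quasi-likelihood, TMM) and DESeq2 1.42.0 took the recovered reads as input for alternatives, together with other scalings, filters, pseudocounts, a replicate block, removal of the trend over exon length, and leaving out each library. The fits were also run on simulated data, and the outcome is not given here.

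The precision is that of 10271571 to 11761234 reads per library and 2 libraries per group. Positions and exon lengths came from GENCODE M21, in which 23356 gene names were found. All 10 members are named, and of each further list described the most abundant gene and those with an unadjusted p under 0.05. Most abundant there refers to the mean normalized count over the libraries, which is not corrected for length. Foxp3, Adgre1 and Pax5 are named as defining markers, and Tnfrsf18, Cd68, Itgam and Lyz2 beside them, after their values were seen. A further list of pathway genes is not reported here. Members and lists were chosen with earlier results of these data known.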

Additional observations from a re-analysis of the deposited data

How the results depend on the processing

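With 2 libraries per group, 0 genes passed at an adjusted p under 0.05 in any of the 16 alternatives run. The number of genes at an unadjusted p under 0.05 was 192. It was 358 without a filter on low values and 388 with the trend over exon length removed together with the replicate block, and it ranged from 79 (without TSLP 2) to 1858 (without PBS 2) when each library was left out. The cause was not tested. Of 160 fold changes of the 10 members under these alternatives, 145 kept their sign and 15 turned. All 15 came from fits with the length trend removed or with a library left out. Other filters and the limma replicate block return the same fold change of a member by design, so that their kept signs carry no weight. Rel and Relb kept their sign in all 16, with the same limit. When each library was left out, the median log2 fold change ranged from −0.073 to 0.12 over the subunits (0.02 with all libraries; −0.073 without PBS 1) and from −0.27 (without TSLP 1) to 0.044 (without TSLP 2) over the inhibitors (−0.11 with all; 0.023 without PBS 1). The mean of the inhibitors minus that of the subunits was −0.17 with all libraries, 0.12 without PBS 1, −0.47 without PBS 2, −0.29 without TSLP 1 and −0.053 without TSLP 2. With the trend over exon length removed, the subunit median turned to −0.047 and this difference was −0.086. With the trend over exon length removed, with or without the replicate block, Nfkb1 turned to −0.047, Nfkbie to 0.033 and Tnfaip3 to −0.020. When each library was left out in turn, the log2 fold changes ranged from 0.003 to 0.26 for Nfkb1, −0.28 to 0.038 for Nfkb2, 0.05 to 0.94 for Rel, −0.073 to 0.12 for Rela, −0.52 to −0.19 for Relb, −0.82 to 0.21 for Nfkbia, −0.56 to 0.023 for Nfkbib, −0.28 to 0.18 for Nfkbie, −0.27 to 0.044 for Nfkbiz and −0.23 to 0.34 for Tnfaip3. Without PBS 2, where the lone PBS library was assumed to vary like the TSLP libraries, Rel, Nfkbia, Nfkbib and Relb had an unadjusted limma p under 0.05, as did 16.3% of all genes tested.

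Whether the samples of a number pair is not settled here. The Pearson r across 11392 genes between the replicate differences of PBS and of TSLP was 0.0007. It was 0.093 over the 2716 genes with a mean of at least 1000. A low r cannot decide this, since the length trend of the PBS libraries also enters these differences. With the replicate number as a block, 258 genes had an unadjusted p under 0.05 with limma and 215 with edgeR, against 192 and 234 without it, and 0 passed at an adjusted p under 0.05. With the block and the length trend removed, Rel, as 1 of the 10 members and among 3.54% of all genes, had an unadjusted limma p under 0.05 and a Benjamini-Hochberg adjusted p of 0.9995.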
